A study of Mus musculus with 35 samples.

Results

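Macrophages carry the glucocorticoid receptor, and the response of bone marrow-derived macrophages to dexamethasone (Dex, a synthetic glucocorticoid) alone was measured here in cultures labelled AMPKa1-/-. The 6 libraries described are those titled as knockout with Dex (3) and as knockout with vehicle (3), of 35 in the series, and genes were tested where the mean FPKM over these 6 libraries was at least 1. FPKM counts the sequenced fragments of a gene relative to its length and to the depth of the library. The series also holds wild-type cultures and cultures with lipopolysaccharide (LPS) or with damage-associated molecular patterns (DAMPs), with and without Dex. All cultures are labelled as of the strain C57BL/6 and were grown from bone marrow in medium with 30% L929 conditioned medium, which supplies the macrophage growth factor CSF1. Cells of the vehicle group received DMSO and those of the Dex group 100 nM Dex, in both cases for 24 h without LPS or DAMPs, and both groups carry the same genotype label. The groups compared with them below are wild-type vehicle and Dex (3 libraries each), and, labelled AMPKa1-/-, LPS (100 ng/ml) with and without Dex and DAMPs (1 ug/ml) with and without Dex (3 libraries each). AMPKa1 is the catalytic subunit of the AMP-activated protein kinase encoded by Prkaa1. The methods give mixed-sex cohorts of mice 8 to 15 weeks old. Which allele was used and whether a Cre driver was involved is not stated in the labels or the methods, and the study's methods count cultures from individual mice as replicates.

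In the resting cell the glucocorticoid receptor, encoded by Nr3c1, is held in the cytoplasm by HSP90 chaperones. On binding its ligand it moves to the nucleus, where it raises some genes by binding DNA elements and lowers many inflammatory genes by acting on other transcription factors, among them NF-kB and AP-1. In macrophages glucocorticoids are known to damp cytokine production and to favour the uptake of dying cells. AMPK senses a low energy charge and is known to act in macrophages on lipid and mitochondrial metabolism.

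The vehicle libraries held 23454927, 18314204 and 21069029 fragments, a depth derived from the spacing of low values, and the Dex libraries 19817989, 21202930 and 21246678. For a gene 1 kb long, each fragment added 0.0426 to 0.0546 FPKM. Libraries of one group resembled each other more than libraries of different groups: Pearson correlations of log2(FPKM + 1) across the 11182 genes were 0.982 to 0.990 within groups and 0.934 to 0.955 between them. The first principal component, with 70.7% of the variance, separated the 3 Dex libraries (30.3 to 37.8) from the 3 vehicle libraries (-36.7 to -27.9). On the second, with 12.9%, Dex replicate 2 lay lowest at -22.1 and Dex replicate 3 highest at 18.4.

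The macrophage markers Lyz2, Csf1r and Spi1 were high in all 6 libraries. Lyz2, which encodes lysozyme, was the most abundant gene, with 29598, 24405 and 18800 FPKM in the vehicle libraries and 33059, 33976 and 27101 with Dex, while Csf1r, the CSF1 receptor, lay between 537 and 662 FPKM and Spi1, the lineage factor PU.1, between 725 and 922. Of the 10 macrophage markers 3 passed the test. Mertk was higher with Dex (10%, beside 11.7% of all genes tested), and Fcgr1 and Itgam were lower (20%, beside 16.9%). All 6 libraries had Ddx3y, a gene of the Y chromosome, at 17.7 to 28.3 FPKM, and Xist, the RNA of the inactive X chromosome, at 0.00755 FPKM at most, whereas the methods describe mixed-sex cohorts.

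Prkaa1, the gene named by the genotype label, was not low in the libraries labelled AMPKa1-/-. It had 14.8, 16.5 and 15.4 FPKM in the vehicle libraries and 21.5, 14.03 and 20.4 FPKM in the Dex libraries. The wild-type vehicle libraries had 15.9, 11.8 and 15.3 FPKM and the wild-type Dex libraries 26.1, 23.2 and 19.1 FPKM, so that the vehicle values of both genotypes overlapped. Prkaa2, which encodes the other catalytic subunit, had 0.0963, 0.1302 and 0.125 FPKM with vehicle and 0, 0.0118 and 0.0295 FPKM with Dex. A gene total does not show whether part of the transcript was missing, and these values do not bear out the label; the genotype is therefore given below as labelled.

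Some genes set libraries of one group apart. Taking genes with at least 10 FPKM in 1 library and more than 20 times the level of another library of its group, a rule chosen after the values had been seen, there were 8 within the vehicle group, 5 within the Dex group and 11 in all, 5 of them on chromosome 17, which carries the major histocompatibility complex. H2-Ea-ps, a class II alpha-chain pseudogene that lacks its promoter in C57BL/6 mice, had 414, 503 and 0 FPKM in the vehicle libraries. In the Dex libraries it had 5.59, 13.8 and 1.37 FPKM. The wild-type vehicle libraries had 151, 160 and 112 FPKM. The levels in the libraries where it was high go against the strain label, in both genotypes. H2-Q1, a class I gene, had 113, 0.216 and 0.125 FPKM with vehicle and 80.5, 105 and 18.3 FPKM with Dex. In this gene the vehicle and Dex libraries with the numbers 2 and 3 did not match. Wild-type vehicle libraries differed in H2-Q1 too, with 64.2, 0.0783 and 55.4 FPKM. Vcp-rs, on the X chromosome, had 0.354, 0.5901 and 18.1 FPKM with vehicle and 0.231, 0.118 and 20.5 FPKM with Dex. Gm21188 had 20.02, 17.8 and 0 FPKM with vehicle and 31.1, 52.9 and 0 FPKM with Dex. In Vcp-rs and Gm21188 the libraries with the number 3 differed from those with the numbers 1 and 2 in both groups, as in the LPS, LPS + Dex and DAMPs groups. In the DAMPs + Dex group Vcp-rs had 28.2, 0.236 and 18.9 FPKM and Gm21188 0, 25.8 and 0 FPKM, so that replicate 1 there was like the libraries with the number 3 and goes against its number. The part that such differences between cultures play in the results on class II genes and in the comparison of the genotypes was not tested.

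Dex changed 3198 of the 11182 genes tested (28.6%) at a Benjamini-Hochberg adjusted p under 0.05 in limma: 1308 (11.7%) were higher and 1890 (16.9%) were lower. Falls were more often large: 676 genes (6.05%) fell at least 2-fold and 258 (2.31%) rose at least 2-fold, on the scale of log2(FPKM + 1), on which all differences below are given and which understates the change of weakly expressed genes. The median difference over all genes tested was -0.04. The counts of the gene lists below are to be read against the shares of 11.7% higher and 16.9% lower among all genes tested. Dex and vehicle values did not overlap for 3166 of the called genes, and for 5263 (47.1%) of all genes tested. The split into rises and falls depended on the scaling: with libraries centred on one median 1822 genes were higher and 1704 lower, and with quantile normalization 2070 and 1889. Of the genes tested, 539 had a mean FPKM under 1 in one of the groups, 323 of them called. Ciita, Tnf, Egr2 and Pcp4l1, named below, are among these and passed the filter through the vehicle group alone. Their adjusted p are to be read with that limit. Just inside the threshold on the mean FPKM stood Fancf (1.00331) and Pfkfb1 (1.00373), and just outside Ufsp1 (0.999809) and Cd300e (0.998869).

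**Figure D1:**
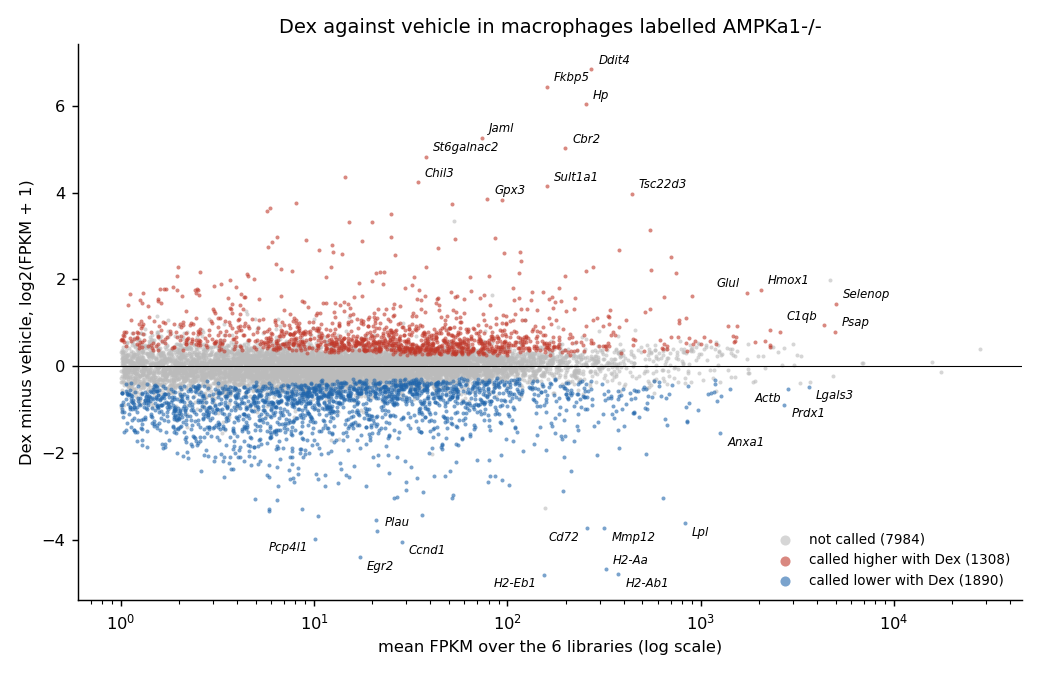
Difference between Dex and vehicle on log2(FPKM + 1) (vertical axis) against the mean FPKM over the 6 libraries labelled AMPKa1-/- (horizontal axis, log scale), 1 point per gene; red and blue mark genes called higher (1308) and lower (1890) with Dex. The labelled genes are those with the largest rises, falls, gains and losses, from Ddit4 at 6.84 to H2-Eb1 at -4.81.

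Classical targets of the glucocorticoid receptor rose, and 2 of them were the largest rises of all named genes. Of 20 genes known to be induced by glucocorticoids, 18 were tested; 14 rose, 2 fell and 2 were not called, with a median difference of 1.55 beside -0.04 over all genes. These counts were 14 and 2 without any one of the 6 libraries. Ddit4, an inhibitor of the growth kinase mTORC1, went from 4.68, 3.4997 and 2.87 FPKM with vehicle to 608, 409 and 599 FPKM with Dex, a difference of 6.84 ± 0.26 (SE) at an adjusted p of 1.1e-08. Fkbp5, an immunophilin that lowers the hormone affinity of the receptor, went from 2.12, 3.34 and 2.56 FPKM to 299, 297 and 356 FPKM (6.45 ± 0.17, adjusted p = 5.2e-10). In both genes the lowest Dex library lay far above the highest vehicle library, though groups without overlap were a condition for the largest rises named.

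Tsc22d3, which encodes the glucocorticoid-induced leucine zipper, an inhibitor of NF-kB and AP-1, rose from 53.3, 48.3 and 52.9 FPKM to 744, 839.7 and 899 FPKM (3.98 ± 0.17). Dusp1, a phosphatase that switches off p38 and JNK kinases, rose from 28.03, 32.8 and 32.7 FPKM to 184, 181 and 237 FPKM (2.64 ± 0.18). Among the others, Zbtb16 rose by 2.18, the metallothioneins Mt2 and Mt1 by 2.07 and 1.31, Klf9 by 1.63, the scavenger receptor Cd163 by 1.47, the transcription factor Cebpd by 1.14, the kinase Sgk1 by 0.97 and Nfkbia, the NF-kB inhibitor, by 0.69. The genes that fell were Anxa1 and Angptl4. Anxa1, which encodes the anti-inflammatory protein annexin A1, went from 1451, 2132 and 2069.6 FPKM to 575, 799 and 555 FPKM (-1.55 ± 0.21, adjusted p = 1.9e-04), and Angptl4, an inhibitor of lipoprotein lipase, from 17.5 to 6.68 FPKM on average. Errfi1 and Zfp36 were not called (0.11 ± 0.17 and -0.10 ± 0.23).

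**Figure D2:**
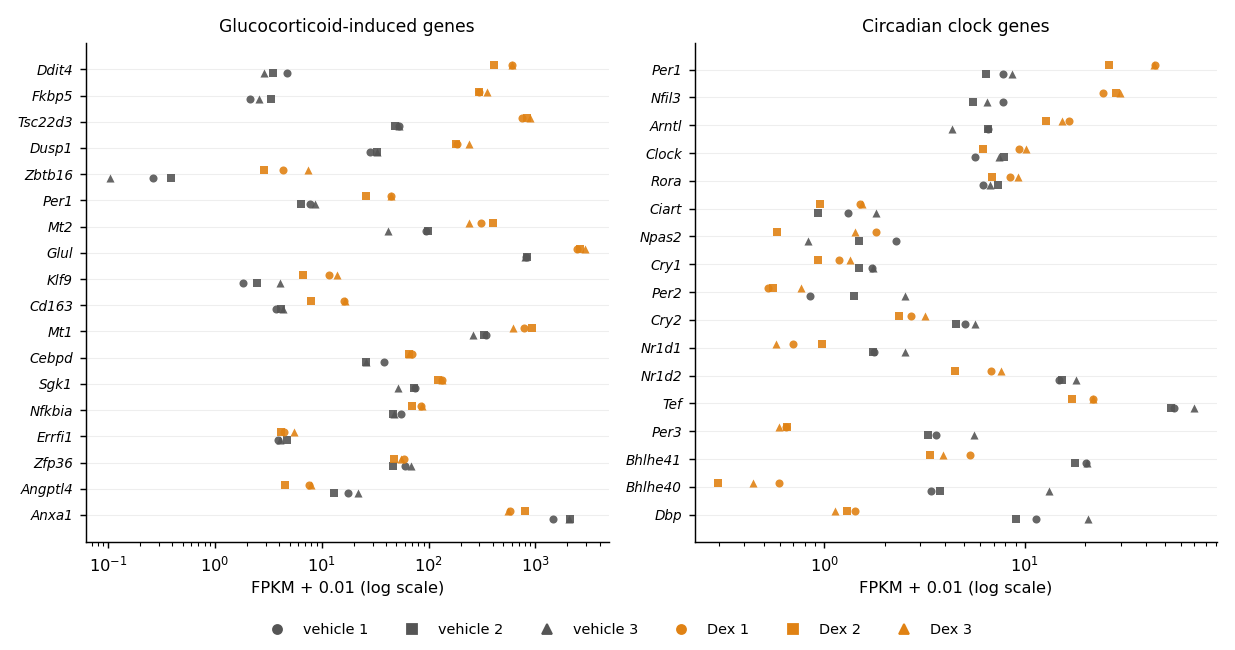
FPKM + 0.01 (horizontal axes, log scale) in each of the 3 vehicle (grey) and 3 Dex (orange) libraries for the tested genes of the glucocorticoid-induced list (left, 18 genes) and of the circadian clock list (right, 17 genes), ordered by their difference; the marker shape gives the replicate number. Ddit4 and Fkbp5 stand at the top on the left, Per1 at the top and Dbp at the bottom on the right.

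The receptor binds palindromes built from the element AGAACA, and the windows from 250 bases before to 50 bases after each RefSeq gene start (GRCm38.p6) were searched for it on both strands. The full palindrome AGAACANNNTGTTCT was in 1 of 10897 windows of tested genes, 1 of the 6 starts of Sgk1. A looser form, GNACANNNTGTNC, which contains the former, was in 28 of those windows (0.257%). It was in 6 of 1327 windows of genes called higher, 2 of them of genes that rose at least 2-fold, and in 3 of 1873 windows of genes called lower, 2 of them of genes that fell at least 2-fold. The windows of Ddit4 and Fkbp5 held neither form nor the single element, which was in 19.0% of all 32851 RefSeq windows and 12.4% of those of tested genes. Its share was 14.2% in windows of genes called higher and 16.4% where the rise was at least 2-fold, beside 11.7% in windows of genes called lower and 12.1% where the fall was at least 2-fold. A match is a string of letters, not a measured binding site. The 250 bases before the start are shown for the glucocorticoid-induced genes Sgk1 and Mt1 and for Map3k6, a stress kinase gene that rose by 3.33, with the letters of the looser form in capitals.

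Sgk1, chr10:21993640-21993889, plus strand: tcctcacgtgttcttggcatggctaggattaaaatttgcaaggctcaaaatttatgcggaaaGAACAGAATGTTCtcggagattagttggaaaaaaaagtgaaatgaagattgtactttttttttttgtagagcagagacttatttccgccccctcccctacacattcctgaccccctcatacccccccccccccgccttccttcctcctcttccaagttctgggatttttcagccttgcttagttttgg

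Mt1, chr8:94178839-94179088, plus strand: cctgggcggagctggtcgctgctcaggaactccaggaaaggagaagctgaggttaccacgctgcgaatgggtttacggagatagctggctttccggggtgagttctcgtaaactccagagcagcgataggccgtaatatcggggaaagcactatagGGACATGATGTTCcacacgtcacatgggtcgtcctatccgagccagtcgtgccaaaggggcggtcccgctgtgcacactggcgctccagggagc

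Map3k6, chr4:133240568-133240817, plus strand: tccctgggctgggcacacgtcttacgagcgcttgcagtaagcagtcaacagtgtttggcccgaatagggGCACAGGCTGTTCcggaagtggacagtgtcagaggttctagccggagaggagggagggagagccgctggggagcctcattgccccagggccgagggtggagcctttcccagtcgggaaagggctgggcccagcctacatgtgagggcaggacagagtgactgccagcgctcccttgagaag

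These matches lie 188 to 176 bases before the start in Sgk1, 94 to 82 bases before it in Mt1 and 181 to 169 bases before it in Map3k6. Sgk1 went from 74.8, 73.4 and 51.8 FPKM with vehicle to 135, 122 and 133 FPKM with Dex, and Mt1 from 344, 330.4 and 264 FPKM to 788, 939 and 617 FPKM. Map3k6 went from 2.18, 1.64 and 1.896 FPKM to 28.9, 23.3 and 32.9 FPKM. In all 3 genes every Dex library was above every vehicle library.

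The receptor gene itself and parts of its chaperone machinery fell. Nr3c1 had 38.8, 45.4 and 40.1 FPKM with vehicle and 26.3, 23.6 and 28.5 FPKM with Dex, a fall without overlap (-0.65 ± 0.15, adjusted p = 0.0061). The inducible cytosolic chaperone Hsp90aa1 went from 196, 315 and 234 FPKM to 82.5, 99.2 and 98.1 FPKM (-1.38 ± 0.16). Of 15 tested genes of the receptor, its chaperones and cofactors, 5 fell, 2 rose (Fkbp5 and the coactivator Ncoa1, 0.87 ± 0.19) and 8 were not called. The 3 other falls were those of Ncoa3 (-0.56), Stip1 (-0.39) and Hsp90ab1 (-0.32), and without any one vehicle library 3 genes of this list fell. That number was also 3 with libraries centred on one median and with no filter on low values. These libraries measure RNA, and receptor protein was not assessed.

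The other largest rises included secreted and metabolic genes. Hp, the gene of the haemoglobin-binding plasma protein haptoglobin, had 11.2, 4.19 and 5.34 FPKM with vehicle and 407, 707 and 389 FPKM with Dex (6.03 ± 0.42, adjusted p = 9.2e-07). Jaml, an adhesion molecule of leukocytes, went from 2.36, 3.13 and 2.704 FPKM to 116, 128 and 192 FPKM (5.26 ± 0.27). Cbr2, a carbonyl reductase, went from 12.5, 15.98 and 4.47 FPKM to 348, 615 and 198 FPKM (5.02 ± 0.46). In each of these genes all Dex libraries lay far above all vehicle libraries, but the largest rises were picked among genes whose groups did not overlap.

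St6galnac2, a sialyltransferase, rose by 4.82 ± 0.23, Sult1a1, a phenol sulfotransferase, by 4.15 ± 0.19, and Gpx3, a secreted glutathione peroxidase, by 3.84 ± 0.29. Chil3, a chitinase-like lectin of alternatively activated macrophages, had the largest SE of the largest rises named here. It went from 5.37, 2.53 and 0.481 FPKM with vehicle to 109, 46.9 and 41.9 FPKM with Dex (4.24 ± 0.75, adjusted p = 0.0012). It has near-identical relatives, between which the authors' counting could split reads. Among called genes the largest gains in mean FPKM were those of Selenop, the selenium carrier selenoprotein P, from 2706 ± 137 to 7321 ± 378 (SD, n = 3), C1qb, a chain of the complement starter C1q, from 2973 ± 128 to 5773 ± 964, and Psap, the lysosomal precursor prosaposin, from 3651 ± 626 to 6254 ± 225. Hmox1, which breaks down heme, gained from 938 ± 144 to 3155 ± 324, and Glul, glutamine synthetase, from 819 ± 16.6 to 2654 ± 239.

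Genes of antigen presentation on major histocompatibility complex class II were among the largest falls. Of 13 genes of class II presentation and costimulation, all tested, 8 fell and none rose, with a median of -2.03. Ciita, the master regulator of class II transcription, had 10.04, 10.1 and 14.2 FPKM with vehicle and 0.163, 0.162 and 0.331 FPKM with Dex (-3.34 ± 0.15, adjusted p = 2.1e-08), with like values in the libraries of each group. The class II chains varied far more between cultures. H2-Eb1 had 81.6, 128 and 688 FPKM with vehicle and 1.02, 6.49 and 20.7 FPKM with Dex (-4.81 ± 1.10, adjusted p = 0.0059), and H2-Ab1 had 127, 143 and 1891 FPKM and 2.6997, 4.75 and 75.5 FPKM (-4.79 ± 1.38, adjusted p = 0.021). In both genes replicate 3 was the highest library of its group, and the Dex library of each number was below the vehicle library of that number.

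H2-Aa went from 303, 375 and 1177 FPKM to 4.82, 23.6 and 54.9 FPKM (-4.68 ± 0.98), Cd74, the invariant chain, from 913, 945 and 1502 FPKM to 56.2, 188 and 216 FPKM (-3.04 ± 0.59), and H2-DMa, which loads peptides, also fell (-2.54 ± 0.33). The checkpoint ligand Cd274 and the costimulatory receptor Cd40 fell (-1.40 and -1.36), whereas H2-DMb1 (-2.03 ± 0.77), Cd86 (-0.03), Cd80 (-0.01), Ctss (0.16) and Icosl (0.17) were not called. H2-Ab1 was no longer called without vehicle replicate 3 (adjusted p = 0.087), without Dex replicate 1 (0.081) or without Dex replicate 2 (0.075). The count of falls was 7 without vehicle replicate 3 and 6 to 8 over the 6 libraries left out in turn. In bulk RNA, fewer cells with a transcript and less of it per cell cannot be told apart, here and for the groups below.

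Class II promoters carry a Y box, whose core was taken as CTGATTGG, read on both strands. It was in 586 of 10897 windows of tested genes (5.38%) and in 50 of 662 windows of genes that fell at least 2-fold (7.55%), but also in 98 of 1873 windows of all genes called lower (5.23%) and in 16 of 232 windows of genes that rose at least 2-fold (6.90%). Of the 13 genes of class II presentation and costimulation 8 had a window: it was in those of H2-Eb1 and H2-Aa and not in those of H2-DMa, H2-DMb1, Cd274, Cd80, Ctss and Icosl. H2-Ab1, Cd40, Cd74, Cd86 and Ciita had no window and were not searched. The 250 bases before the start of H2-Eb1 and H2-Aa are shown with the match in capitals.

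H2-Eb1, chr17:34305617-34305866, plus strand: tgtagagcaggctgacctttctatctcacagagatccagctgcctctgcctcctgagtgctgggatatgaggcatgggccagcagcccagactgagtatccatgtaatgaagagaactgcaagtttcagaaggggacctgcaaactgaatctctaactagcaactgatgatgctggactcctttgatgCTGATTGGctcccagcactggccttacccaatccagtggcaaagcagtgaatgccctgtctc

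H2-Aa, chr17:34287824-34288073, minus strand: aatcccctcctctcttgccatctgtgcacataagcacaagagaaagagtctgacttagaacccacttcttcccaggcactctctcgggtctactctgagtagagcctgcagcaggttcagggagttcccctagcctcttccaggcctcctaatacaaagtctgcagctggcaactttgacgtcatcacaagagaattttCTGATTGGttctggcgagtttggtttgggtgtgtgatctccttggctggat

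The matches lie 62 to 55 bases before the start in H2-Eb1 and 51 to 44 bases before it in H2-Aa. These genes had the first and the third largest fall of the named genes.

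**Figure D3:**
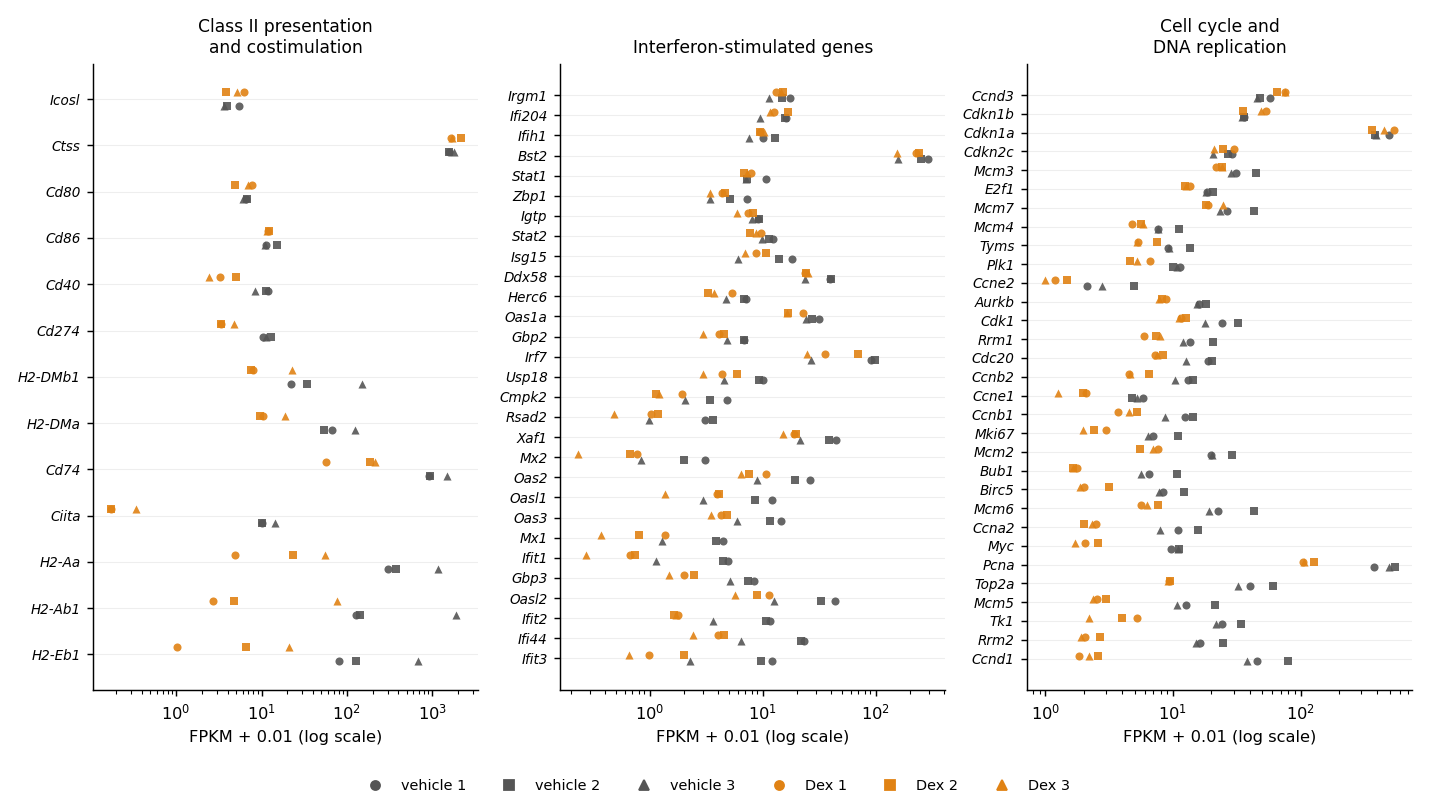
FPKM + 0.01 (horizontal axes, log scale) in each of the 3 vehicle (grey) and 3 Dex (orange) libraries for class II presentation and costimulation (13 genes), interferon-stimulated genes (29 genes) and cell cycle and DNA replication (31 genes), ordered by their difference; the marker shape gives the replicate number. Vehicle replicate 3 (grey triangle) is high for the class II chains and lowest of the vehicle libraries for all 29 interferon-stimulated genes.

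The remaining largest falls were Egr2, Ccnd1, Pcp4l1, Plau, Mmp12, Cd72 and Lpl. Egr2, a zinc-finger factor of macrophage activation, had 17.6, 25.02 and 59.5 FPKM with vehicle and 0.484, 0.331 and 0.541 FPKM with Dex (-4.41 ± 0.32, adjusted p = 1.2e-06). Plau, the urokinase plasminogen activator, went from 30.5, 42.3 and 48.9 FPKM to 2.26, 1.83 and 1.69 FPKM (-3.81 ± 0.16), and Mmp12, macrophage elastase, from 355, 552 and 876 FPKM to 30.3, 48.04 and 45.7 FPKM (-3.74 ± 0.32). The ranges of the groups were far apart in each of them, but the largest falls too were picked among genes whose groups did not overlap.

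Pcp4l1 fell by 3.98 ± 0.15, from 20.03, 21.02 and 18.7 FPKM to at most 0.508 FPKM. Cd72, an inhibitory receptor of the C-type lectin family, fell by 3.74 ± 0.25, from 478 ± 35.3 to 37.2 ± 15.5 FPKM (SD, n = 3). Lpl, lipoprotein lipase, fell from 1533 ± 172 to 127 ± 41.2 FPKM and lost more FPKM than any other called gene but Prdx1, which encodes the peroxide-reducing enzyme peroxiredoxin 1 and fell from 3528 ± 513 to 1909 ± 326 FPKM (-0.89 ± 0.31, adjusted p = 0.048). The call of Prdx1 was lost without any one library (adjusted p 0.055 to 0.14). Lgals3, galectin-3, and Actb, beta-actin, also lost much FPKM, from 4228 ± 413 to 3039.9 ± 250.3 and from 3364 ± 215 to 2331 ± 297. With libraries centred on one median, the calls of Lgals3 (adjusted p = 0.074) and Actb (0.099) were lost, and that of Actb also without Dex replicate 3 (0.070), vehicle replicate 1 (0.052) or vehicle replicate 3 (0.057).

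Cytokine genes that passed the test were mostly lower with Dex. Of 30 inflammatory cytokines and enzymes, 17 were tested; 8 fell, 2 rose and 7 were not called (median -0.97, and -0.38 over 29 genes with no filter). Tnf, tumour necrosis factor, had 10.7, 9.93 and 13.8 FPKM with vehicle and 0.423, 0.243 and 0.121 FPKM with Dex (-3.30 ± 0.32, adjusted p = 1.4e-05), so that its libraries did not overlap. Il1b went from 13.03, 2.703 and 4.23 FPKM to 1.56, 1.17 and 0.3495 FPKM (-1.73 ± 0.42), and the receptor antagonist Il1rn, which opposes interleukin 1, from 15.7, 23.9 and 14.99 FPKM to 2.37, 2.797 and 1.92 FPKM (-2.49 ± 0.27).

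The chemokines Cxcl14 (-2.86 ± 0.30), Ccl4 (-1.80 ± 0.42), Ccl2 (-1.16) and Cxcl16 (-0.91) fell, as did the anti-inflammatory cytokine Il10 (-1.005, from 3.45 to 1.14 FPKM on average). The 2 that rose were the chemokines Ccl6 (1.30 ± 0.18) and Ccl9 (0.96 ± 0.29). Falls numbered 7 or 8 without any one library; rises numbered 1 without Dex replicate 2, Dex replicate 3 or any one vehicle library.

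Interferon-stimulated genes had negative differences in 29 of 29 tested members, and 10 were called, all lower (median -0.70). Ifit3, which encodes an antiviral protein, had 12.2, 9.67 and 2.28 FPKM with vehicle and 0.983, 2.00005 and 0.647 FPKM with Dex (-1.85 ± 0.47, adjusted p = 0.011), and Oasl2, of the 2'-5' oligoadenylate synthetase family, had 43.6, 33.1 and 12.5 FPKM and 11.3, 8.91 and 5.64 FPKM (-1.56 ± 0.39). Vehicle replicate 3 was the lowest vehicle library in both. The median was -1.08 without vehicle replicate 3. The number called was 4 with no moderation and 6 with no filter on low values, and it varied with the library left out. It was 3 without vehicle replicate 1, 2 without vehicle replicate 2, 15 without vehicle replicate 3 and 5 without Dex replicate 3. Over all genes, lower calls in this order numbered 1524 of 11163, 1329 of 11135, 1494 of 11156 and 1724 of 11201. They numbered 1890 of 11182 with all libraries. Ifi44 (-1.80 ± 0.46) and Ifit2 (-1.70 ± 0.50) were not called without vehicle replicate 1 (adjusted p = 0.051 and 0.082) or vehicle replicate 2 (0.056 and 0.087), and Ifit2 also not without Dex replicate 1 (0.053), 2 (0.058) or 3 (0.052). Ifit3 was not called without vehicle replicate 2 (adjusted p = 0.051). Genes of the Ifit and Oas families have close copies among which reads may be split.

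Receptors and signal carriers of inflammation moved in both directions. Of 20 Toll-like receptors and adaptors tested 5 fell (25%, beside 16.9% of all genes) and 2 rose (10%, beside 11.7%): Tlr1, a partner of Tlr2, went from 21.3, 22.9 and 27.3 FPKM to 3.21, 2.64 and 2.68 FPKM (-2.69 ± 0.18), and the endosomal RNA sensor Tlr7 rose from 77.7, 83.02 and 70.9 FPKM to 158, 147 and 179 FPKM (1.05 ± 0.10). Irak2, a kinase below these receptors, fell by 1.43 ± 0.18, and Tlr9 fell by 0.88 ± 0.23. Without vehicle replicate 1 or 2 the falls of the list numbered 3, and Tlr9 was lost without Dex replicate 2 (adjusted p = 0.058) or vehicle replicate 1 (0.053).

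Of 15 NF-kB subunits and inhibitors 5 fell and 1 rose. The inhibitors Nfkbie (-1.57 ± 0.22) and Nfkbiz (-1.48 ± 0.24) fell, whereas Nfkbia rose from 55.4, 46.02 and 47.3 FPKM to 84.6, 69.5 and 87.6 FPKM (0.69 ± 0.11). Rel fell by 0.49 ± 0.17 (adjusted p = 0.042), a call lost without any one library other than Dex replicate 3 (0.063 to 0.14). The falls of the list numbered 2 without vehicle replicate 1 and 3 without Dex replicate 2, vehicle replicate 2 or vehicle replicate 3. They also numbered 3 with no filter or no moderation, and with the length trend removed 3 fell and 2 rose. Of 7 MAP kinase phosphatases tested, Dusp1 rose and 5 fell, led by the ERK phosphatases Dusp4 (-2.37 ± 0.44) and Dusp6 (-1.68 ± 0.14), and Dusp7 (-0.83 ± 0.27) was lost without Dex replicate 2 (adjusted p = 0.095), vehicle replicate 1 (0.087) or vehicle replicate 3 (0.11). The falls of that list numbered 3 without vehicle replicate 1.

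Of 15 chemokine receptors and adhesion genes 6 fell and 2 rose. Ccr2, the receptor that draws monocytes into tissue, went from 6.15, 9.21 and 7.92 FPKM to 0.685, 1.07 and 1.01 FPKM (-2.18 ± 0.22), and Cx3cr1 from 22.7, 25.6 and 6.69 FPKM to 4.12, 3.71 and 1.94 FPKM (-2.03 ± 0.52, lost without vehicle replicate 2 at an adjusted p of 0.059). Vcam1, an adhesion molecule, rose from 6.15, 2.24 and 1.86 FPKM to 48.97, 15.4 and 31.2 FPKM (2.88 ± 0.40). With the replicate number as a block the list had 6 falls and 4 rises, and rises numbered 1 without any one vehicle library. Among 10 colony-stimulating factors, growth factors and their receptors 5 fell and none rose: Pdgfb (-1.65 ± 0.24), Csf3r (-1.25 ± 0.16), Csf2ra (-1.002 ± 0.19), Csf2rb (-0.76) and Pdgfa (-0.82 ± 0.23), the last not called without Dex replicate 2 (adjusted p = 0.065), Dex replicate 3 (0.054), vehicle replicate 1 (0.052) or vehicle replicate 3 (0.080).

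Genes of cell division fell together. Of 31 tested genes of the cell cycle and DNA replication 26 fell (83.9%, beside 16.9% of all genes), 1 rose and 4 were not called, with a median of -1.13; falls numbered 24 to 26 without any one library. Ccnd1, cyclin D1, which carries growth signals into the cycle, had 45.8, 79.997 and 37.97 FPKM with vehicle and 1.82, 2.58 and 2.19 FPKM with Dex (-4.05 ± 0.26, adjusted p = 4.7e-07). Pcna, the replication clamp, went from 376, 549 and 491 FPKM to 105, 127 and 106 FPKM (-2.04 ± 0.14), and Mki67, the Ki-67 antigen of dividing cells, from 6.97, 10.9 and 6.33 FPKM to 2.95, 2.397 and 1.97 FPKM (-1.37 ± 0.23). In these genes the groups did not overlap, and vehicle replicate 2 was the highest library.

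The nucleotide-making enzymes Rrm2 (-2.59 ± 0.27) and Tk1 (-2.55 ± 0.26), the helicase subunit Mcm5 (-2.09 ± 0.24), the topoisomerase Top2a (-2.09) and the growth factor-responsive factor Myc (-1.90) fell as well. The gene that rose was Ccnd3, cyclin D3, from 57.8, 48.3 and 45.4 FPKM to 75.1, 65.8 and 76.1 FPKM (0.51 ± 0.13). The cell cycle inhibitors Cdkn1a (0.09 ± 0.21), Cdkn1b (0.34 ± 0.21) and Cdkn2c (-0.02 ± 0.18) were not called.

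The genes of the circadian clock moved in both directions, with 9 of 17 falling and 3 rising. With the length trend removed 8 fell and 5 rose, and of the 9 genes with a mean of at least 5 FPKM 4 fell and 3 rose, with a median of 0.24 beside -0.64 over the 17. Per1, a repressor of the clock that glucocorticoids induce, rose from 7.802, 6.42 and 8.62 FPKM to 44.8, 26.1 and 44.2 FPKM (2.16 ± 0.24), and with it rose Nfil3 (1.91 ± 0.17) and the activator Arntl (1.23 ± 0.15). Dbp, an output factor of the clock, fell from 11.4, 9.07 and 20.6 FPKM to 1.42, 1.29 and 1.13 FPKM (-2.61 ± 0.22). The factors Bhlhe40 (-2.23 ± 0.41) and Bhlhe41 (-1.996 ± 0.19), Per3 (-1.64), Tef (-1.504), Nr1d2 (-1.25), Nr1d1 (-0.78), Cry2 (-0.70) and Per2 (-0.64) fell, and Clock (0.25), Cry1 (-0.31) and Rora (0.24) were not called. A single time point was sampled, so phase was not assessed.

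Of 15 Kruppel-like and C/EBP factors 6 rose and 1 fell (median 0.29), counts that held without any one library. Klf4, a factor of monocyte differentiation, rose from 7.25, 7.84 and 6.91 FPKM to 40.1, 33.9 and 34.7 FPKM (2.16 ± 0.20), Klf13 from 44.3, 40.8 and 45.4 FPKM to 127, 92.6 and 139 FPKM (1.42 ± 0.18), and Cebpb from 35.97, 26.7 and 33.2 FPKM to 70.5, 72.2 and 87.9 FPKM (1.24 ± 0.16). Klf9 (1.63 ± 0.25), Cebpd (1.14) and Cebpg (0.49) were also higher, and Klf10 was lower (-0.80).

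Genes for the uptake of dying cells did not move as one. Mertk, a receptor for apoptotic cells, rose from 25.4, 27.8 and 37.5 FPKM to 128, 109 and 157 FPKM (2.09 ± 0.17, adjusted p = 3.9e-06), while its relative Axl fell from 39.2, 36.9 and 35.2 FPKM to 12.9, 8.91 and 11.5 FPKM (-1.67 ± 0.19). Of 12 clearance genes tested 7 fell and 2 rose, among the falls the receptor Lrp1 (-1.21 ± 0.24), the integrin chain Itgav (-1.13 ± 0.18) and the bridging ligands Gas6 (-0.63) and Pros1 (-0.62). Falls numbered 4 without Dex replicate 2, without vehicle replicate 1 or with no moderation. Rises numbered 1 without Dex replicate 3, vehicle replicate 1 or vehicle replicate 2 and with no filter. They numbered 3 without vehicle replicate 3, with centring, with quantile normalization or with the length trend removed.

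Among 12 scavenger receptors and markers of alternative activation, 6 rose and 4 fell. Cd163 rose from 3.72, 4.11 and 4.29 FPKM to 16.3, 7.96 and 16.5 FPKM (1.47 ± 0.26), the lectin Clec10a by 1.17 ± 0.31, Marco by 0.87, Ccl24 by 0.75 and Il4ra by 0.52, whereas Cd36, which takes up oxidised lipids, fell from 239, 473 and 368 FPKM to 43.7, 94.9 and 63.6 FPKM (-2.41 ± 0.35). Msr1 (-0.83), Scarb1 (-0.77) and the mannose receptor Mrc1 (-0.61) fell too. Clec10a was not called without Dex replicate 2 (adjusted p = 0.057) or vehicle replicate 3 (0.057). Falls of the list numbered 2 without Dex replicate 3, without vehicle replicate 1 or with no moderation.

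In the complement list 3 of 11 genes rose and 2 fell, with 4 falls under the block. Cd55, which protects cells from complement, rose from 3.58, 4.42 and 2.06 FPKM to 26.5, 22.7 and 24.2 FPKM (2.59 ± 0.28), C1qb by 0.95 ± 0.17 and C1qa by 0.78. The integrins Itgam, the alpha chain of complement receptor 3, and Itgax fell (-1.89 ± 0.21 and -2.53 ± 0.47). Fcgr1, the high-affinity receptor for IgG, fell from 70.3, 81.1 and 61.2 FPKM to 10.8, 19.5 and 6.698 FPKM (-2.54 ± 0.31). It was the only called gene of 6 Fc gamma receptor genes. Of these, 2 fell without Dex replicate 2, with quantile normalization, with the length trend removed, with no moderation and with all 18 libraries labelled AMPKa1-/- or only the 6 compared. A rise of 1 gene was called with centring, with the length trend removed and with all 18 libraries or only the 6 compared.

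Of 14 matrix metalloproteinases and inhibitors tested 5 rose and 4 fell; besides Plau and Mmp12, the collagenase Mmp13 fell by 1.59 ± 0.29 and Mmp8, also stored in neutrophil granules, rose from 19.7, 29.2 and 23.5 FPKM to 68.2, 71.9 and 54.6 FPKM (1.40 ± 0.23). Rises numbered 3 with all 18 libraries labelled AMPKa1-/-, with no filter or with no moderation, 1 without Dex replicate 1, 2 without vehicle replicate 1 or vehicle replicate 3, and 3 without Dex replicate 2 or vehicle replicate 2. Of 28 lysosome genes 6 rose and 6 fell, 21.4% each way beside 11.7% and 16.9% of all genes. Acp5, an acid phosphatase of osteoclasts, rose from 11.8, 11.7 and 7.91 FPKM to 61.8, 113 and 56.1 FPKM (2.72 ± 0.23). Lipa, the lysosomal acid lipase, fell from 565, 576 and 645 FPKM to 167, 151 and 165 FPKM (-1.88 ± 0.12), and the proton pump subunit Atp6v0d2 fell by 1.17 ± 0.29.

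**Figure D4:**
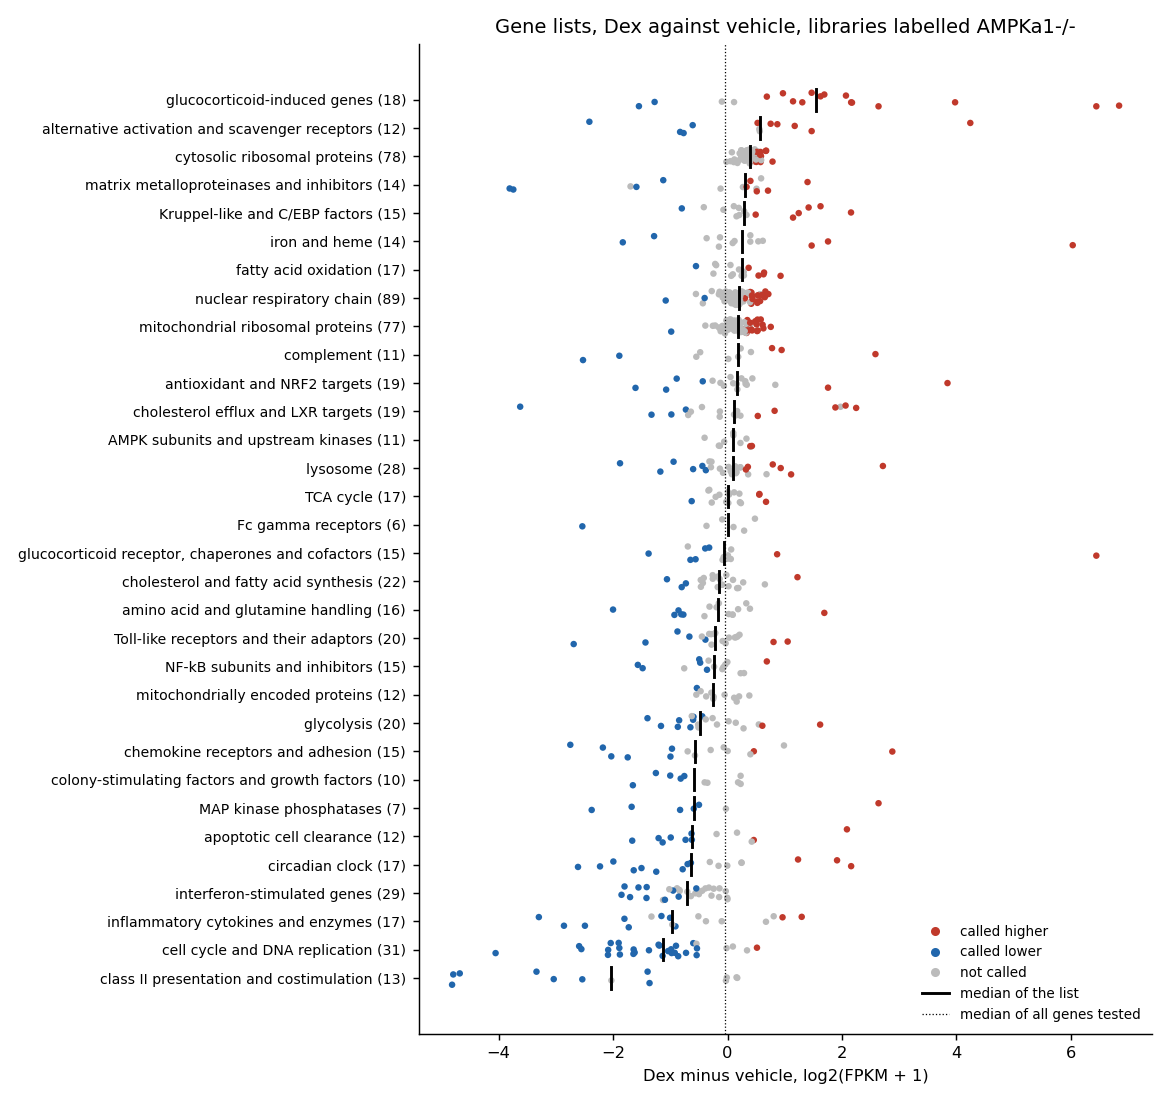
Difference between Dex and vehicle on log2(FPKM + 1) (horizontal axis) for the tested genes of 32 gene lists, ordered by their median; the number of tested genes stands in brackets, red and blue points are called higher and lower, grey points are not called, black bars are the lists' medians and the dotted line is the median of all genes tested. The medians run from -2.03 for class II presentation to 1.55 for glucocorticoid-induced genes.

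In sugar metabolism, 8 of 20 glycolysis genes fell and 2 rose (median -0.47). Hk3, a hexokinase of leukocytes, fell from 148, 136 and 195 FPKM to 68.2, 60.1 and 50.8 FPKM (-1.40 ± 0.22), and Pkm, pyruvate kinase (-0.85), and Gapdh (-0.59) fell too. Pfkfb3 and Pfkfb4, which make the activator of phosphofructokinase, went in opposite directions: Pfkfb3 rose from 17.9, 14.6 and 19.2 FPKM to 55.7, 34.98 and 83.4 FPKM (1.62 ± 0.30) and Pfkfb4 fell from 37.3, 38.98 and 48.4 FPKM to 19.2, 23.7 and 23.8 FPKM (-0.87 ± 0.16). Pdk1, which holds back pyruvate oxidation, fell by 1.16 ± 0.40 (adjusted p = 0.045), a call lost without any one library (0.064 to 0.13). Falls of the list numbered 4 without vehicle replicate 2 and 5 without Dex replicate 1, Dex replicate 3 or vehicle replicate 3, and rises numbered 1 without Dex replicate 2, vehicle replicate 2 or vehicle replicate 3.

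The tricarboxylic acid cycle had 3 rises and 1 fall among 17 genes (17.6% and 5.88%, beside 11.7% and 16.9% of all genes). The called genes included chains of one enzyme, the NAD-dependent isocitrate dehydrogenase, in both directions: Idh3g rose from 133, 131 and 132 FPKM to 208, 209 and 216 FPKM (0.67 ± 0.08) and Idh3b by 0.56 ± 0.12, while the catalytic chain Idh3a fell from 9.76, 11.7 and 11.002 FPKM to 6.13, 6.34 and 7.54 FPKM (-0.63 ± 0.14). Sdhd, a membrane anchor of succinate dehydrogenase, rose by 0.55 ± 0.12. Falls of the list numbered 3 with quantile normalization, with all 18 libraries labelled AMPKa1-/- and with only the 6 libraries compared, and 2 with the block, with the length trend removed, with no moderation and without vehicle replicate 3.

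Of 17 genes of fatty acid oxidation 5 rose and 1 fell. Ucp2, an uncoupling protein of the mitochondrial inner membrane, rose from 983, 782 and 1122 FPKM to 1854, 1723 and 1855 FPKM (0.93 ± 0.13), the dehydrogenase Acadl by 0.64 ± 0.12 and the hydratase Echs1 by 0.63 ± 0.12. Cpt1a, the gate of fatty acid entry into mitochondria, fell by 0.55 ± 0.15, a call lost without Dex replicate 2 (adjusted p = 0.053) or vehicle replicate 3 (0.056). Falls of the list numbered 2 with quantile normalization or no moderation and 0 with the length trend removed.

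In amino acid handling Glul rose from 825, 832 and 800.3 FPKM to 2437, 2615 and 2911 FPKM (1.69 ± 0.13, adjusted p = 1.7e-06), and 5 of 16 genes fell. Psat1, of serine synthesis, went from 12.2, 15.7 and 19.2 FPKM to 2.99, 3.14 and 3.21 FPKM (-2.001 ± 0.25), and Slc7a5, an importer of large amino acids, fell by 0.86 ± 0.16. Gatm, of creatine synthesis, fell by 0.93 ± 0.29, a call lost without Dex replicate 2 (adjusted p = 0.11), vehicle replicate 1 (0.082) or vehicle replicate 2 (0.087). Asns (-0.81) and Slc38a1 (-0.77) fell too. Rises of the list numbered 2 without Dex replicate 2, with the length trend removed and with only the 6 libraries compared.

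In cholesterol and fatty acid synthesis 3 of 22 genes fell (13.6%, beside 16.9% of all genes) and 1 rose (4.55%, beside 11.7%): the falls included Srebf2, a transcription factor that drives sterol synthesis (-0.80 ± 0.17), and the squalene epoxidase Sqle (-0.73 ± 0.21), and Mvd rose (1.22 ± 0.28). Sqle was not called without any one library other than vehicle replicate 3 (adjusted p 0.054 to 0.078), falls of the list numbered 2 without any one library other than vehicle replicate 3, and rises numbered 2 with the block, centring or quantile normalization. With only the 6 libraries compared 6 genes of the list fell and 2 rose. Of 19 efflux genes and targets of the sterol receptor LXR, 5 rose (26.3%) and 4 fell (21.1%). The apolipoproteins Apoc2 (from 2.12, 0.998 and 1.97 FPKM to 8.72, 13.2 and 13.4 FPKM, 2.25 ± 0.23) and Apoc1 (1.88 ± 0.33) and the fatty acid carrier Fabp4 (2.06 ± 0.28) rose, and Lpl (-3.62 ± 0.22), Pparg (-1.33) and Nr1h3, which encodes LXR alpha (-0.98), fell. Apoe, the lipid carrier apolipoprotein E, had 1569.9, 1158 and 3262 FPKM with vehicle and 6333, 5768 and 9862 FPKM with Dex without overlap but was not called (1.97 ± 0.73, adjusted p = 0.061). The efflux list had 6 rises with the block, the length trend removed, all 18 libraries labelled AMPKa1-/- or only the 6 compared. It had 4 rises without Dex replicate 1, Dex replicate 3 or vehicle replicate 2.

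Antioxidant genes and iron genes were called in both directions. Of 19 NRF2 targets and antioxidant genes 4 fell (21.1%, beside 16.9% of all genes) and 2 rose (10.5%, beside 11.7%), shares near those of all genes. With only the 6 libraries compared 4 rose. Srxn1, which repairs peroxiredoxins, fell from 238, 343 and 281 FPKM to 76.4, 110.4 and 93.98 FPKM (-1.61 ± 0.22) and Txnrd1 fell too (-1.07 ± 0.21). Hmox1 rose from 1014, 1026 and 772 FPKM to 3137, 3487 and 2839 FPKM (1.76 ± 0.19). Of 14 iron and heme genes tested 3 rose (21.4%, beside 11.7% of all genes) and 2 fell (14.3%, beside 16.9%), and 6 rose with only the 6 libraries compared. The risers Hp, Hmox1 and Cd163 bind haemoglobin, degrade heme and take up the haptoglobin complex. Those that fell were the transferrin receptor Tfrc, from 64.99, 81.8 and 69.8 FPKM to 17.3, 15.7 and 27.1 FPKM (-1.83 ± 0.18), and the iron transporter Slc11a2 (-1.28).

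Of 11 tested AMPK subunits and upstream kinases 2 rose (18.2%, beside 11.7% of all genes), the regulatory subunits Prkab1 (from 33.5, 37.3 and 32.5 FPKM to 46.2, 38.3 and 53.6 FPKM, 0.40 ± 0.12) and Prkag2 (from 27.2, 24.6 and 29.3 FPKM to 42.6, 30.97 and 37.1 FPKM, 0.43 ± 0.14). The list had 1 rise with the block or with no moderation, 3 rises and 1 fall with quantile normalization, 3 rises with all 18 libraries, centring or the length trend removed, and 1 rise and 2 falls of 14 genes with no filter on low values. Both calls depended on single libraries: Prkab1 was lost without either Dex replicate 1 or 3 (adjusted p = 0.064 and 0.091) or either vehicle replicate 1 or 3 (0.068 and 0.083). Prkag2 was lost with the block (adjusted p = 0.051) and without any one library other than Dex replicate 2 (0.052 to 0.15). Prkaa1 was not called (0.23 ± 0.16, adjusted p = 0.33).

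Most tested genes of the ribosome and of the respiratory chain were not called, which also holds for all genes tested. The median differences of their lists were small, but most differences were positive. They were so in 77 of 78 cytosolic ribosomal, 61 of 77 mitochondrial ribosomal and 73 of 89 nuclear respiratory chain genes. The shares called higher were 20.5%, 23.4% and 19.1% in this order, beside 11.7% of all genes tested. Of 78 cytosolic ribosomal protein genes 16 were higher and none lower (median 0.39), of 77 mitochondrial ribosomal protein genes 18 were higher and 1 lower (0.19), and of 89 respiratory chain genes of the nucleus 17 were higher and 2 lower (0.20). Rps9 had 1319, 1249 and 936 FPKM with vehicle and 1607, 2319 and 1687 FPKM with Dex (0.68 ± 0.18), Mrps30 5.63, 6.28 and 4.81 FPKM and 10.3, 10.6 and 9.21 FPKM (0.76 ± 0.14), and Ndufa6, a subunit of complex I, 125, 111 and 113 FPKM and 185, 209 and 179 FPKM (0.71 ± 0.11). Cytosolic ribosomal proteins took 9.75%, 9.35% and 7.68% of the FPKM sum in the vehicle libraries and 10.7%, 12.8% and 10.2% in the Dex libraries, so that Dex replicate 2 was highest and vehicle replicate 3 lowest.

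These lists moved with gene length and with single libraries. The median difference fell from 0.12 in the shortest of 5 equal length classes of genes, through 0.03, -0.04 and -0.11, to -0.17 in the longest, and without Dex replicate 2 from 0.11 to -0.05. Higher cytosolic ribosomal genes numbered 3 without Dex replicate 2, 1 without vehicle replicate 3, 6 without vehicle replicate 2, 9 without Dex replicate 1, 38 with the block and 8 with the length trend removed, a setting added after the data had been seen. They numbered 8 with no filter and 9 with no moderation. Higher mitochondrial ribosomal genes numbered 7 without Dex replicate 2, 8 without vehicle replicate 3, 9 without vehicle replicate 2, 10 without Dex replicate 1 and 10 with the length trend removed, where 3 were lower. With no filter 10 were higher. The median of the respiratory chain list was 0.11 without Dex replicate 2 and 0.11 with the length trend removed. Higher respiratory chain genes numbered 9 without Dex replicate 2, 10 without vehicle replicate 2 and 11, with 4 lower, with the length trend removed. The part of gene length in these results was not tested beyond this setting. Many ribosomal protein genes have processed copies among which reads may be split. Of 12 tested proteins encoded by the mitochondrial genome 1 was called, mt-Nd3, lower (-0.54 ± 0.17), and it was lost with centring (adjusted p = 0.062) and without Dex replicate 2 (0.078), Dex replicate 3 (0.073), vehicle replicate 2 (0.097) or vehicle replicate 3 (0.080). No gene of this list was called with no filter on low values or with no moderation. Quantile normalization gave 2 falls, and only the 6 libraries compared gave 1 fall and 1 rise.

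Markers of other cells that such cultures could hold were at or near 0, with exceptions. Of 14 neutrophil markers 7 were tested; the defining Ly6g was at most 0.2002 FPKM and Mpo at most 0.218 FPKM, and the summed level of the list was 118, 101 and 97.7 FPKM with vehicle and 143, 122 and 104 with Dex, with Mmp8 and Csf3r as its most abundant genes, of which the former rose and the latter fell; 2 genes of the list fell without vehicle replicate 3. S100a8 had 11.2, 7.21 and 4.82 FPKM with vehicle and 19.1, 13.4 and 8.13 FPKM with Dex and was not called. Of 9 dendritic cell markers, Flt3, Cd209a and Siglech were listed at 0 in all vehicle libraries, Flt3 was at most 0.358 FPKM with Dex and Zbtb46 was at most 0.369 FPKM. Batf3 was the only one tested and fell from 8.77, 7.09 and 8.73 FPKM to 1.78, 1.28 and 1.46 FPKM (-1.88 ± 0.37). The part of dendritic cells in the fall of class II genes was not tested beyond these levels.

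Of 12 lymphocyte markers Cd4 alone was tested and was not called (-0.50 ± 0.24), although it was without vehicle replicate 3 (adjusted p = 0.040), and Cd3e was at most 0.07605 FPKM. Of 9 stromal markers 3 were tested and 2 rose, Acta2 from 2.78, 1.84 and 1.28 FPKM to 6.403, 9.904 and 3.57 FPKM (1.30 ± 0.27) and Col1a2 from 0.391, 1.098 and 0.664 FPKM to 1.48, 2.19 and 1.46 FPKM (0.67 ± 0.21), the latter with a vehicle mean of 0.718 FPKM and not called with a pseudocount of 0.1 (adjusted p = 0.11), with no filter (0.064), with no moderation (0.067) or without Dex replicate 1 (0.054), Dex replicate 2 (0.12), vehicle replicate 1 (0.13) or vehicle replicate 3 (0.082). No mast cell marker was tested. Of 10 erythroid and megakaryocyte markers Itga2b alone reached a mean of 1 FPKM, and only through the Dex libraries (0.541, 0.495 and 0.645 FPKM with vehicle and 1.83, 1.11 and 1.62 FPKM with Dex). Its call was lost without vehicle replicate 1 (adjusted p = 0.054) or vehicle replicate 2 (0.065) and with a pseudocount of 0.1 (0.11), and without Dex replicate 1 or 3 it was under the filter and not tested. The globin genes were at most 0.175 FPKM.

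The response to Dex was also measured in other libraries of the series. In wild-type cultures, which share no library with those above, limma fitted in the same way called 2792 of 11367 genes (24.6%), 1334 higher and 1458 lower. The genes called in both numbered 1538, which is 48.1% of the calls labelled AMPKa1-/- and 55.1% of the wild-type calls, and all but 1 went the same way. Of the 3198 genes called in the libraries labelled AMPKa1-/-, 87.5% had a difference of the same sign in wild-type (64.1% of all genes tested), and of the 934 called with at least a 2-fold difference 96.3%. Ddit4 and Fkbp5 rose by 7.31 and 6.88 in wild-type, and the differences of H2-Eb1 and Egr2 there were -4.34 and -4.25.

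The difference between the genotypes in the response to Dex was tested by the interaction over 23 libraries. No gene of 11301 (0%) passed an adjusted p under 0.05 in limma, the smallest being 0.054, and 2555 (22.6%) had an unadjusted p under 0.05. The median over all genes was -0.11 and 0.06 with libraries centred on one median, so single values are to be read against that shift. The protein-coding genes with the smallest p were Cd276, Ino80, Ldhb, Slc5a3 and Plekhh2. Cd276, a checkpoint ligand of the B7 family, fell in the libraries labelled AMPKa1-/- from 2.55, 3.202 and 5.49 FPKM to 0.0779, 0.218 and 0.145 FPKM, beside 0.671, 0.661 and 0.6799 FPKM and 0.0774, 0.133 and 0.114 FPKM in wild-type (interaction -1.41 ± 0.24, adjusted p = 0.054). Only its vehicle libraries labelled AMPKa1-/- were above 1 FPKM, so Cd276 passed the filter through that group alone. Its interaction is therefore given as a description only. Ldhb, a lactate dehydrogenase chain, had 26.8, 20.2 and 27.4 FPKM with vehicle and 29.9, 29.7 and 24.3 FPKM with Dex, beside 35.7, 31.1 and 30.3 FPKM and 19.2, 13.1 and 16.4 FPKM in wild-type (interaction 1.14 ± 0.22, adjusted p = 0.11).

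Among the gene groups above, the interaction is given as a description. Of 18 glucocorticoid-induced genes 4 (22.2%, beside 22.6% of all genes) had an unadjusted p under 0.05, and none passed the test. Their interactions were -1.60 ± 0.46 for Klf9, -1.64 ± 0.49 for Zbtb16, -0.78 ± 0.25 for Dusp1 and 0.77 ± 0.24 for Cebpd, each at an adjusted p of 0.18 in limma. Klf9 rose from 3.77, 1.44 and 4.14 FPKM to 37.4, 42.04 and 28.3 FPKM in wild-type. Nr3c1 had 42.5, 37.9 and 46.9 FPKM with vehicle and 43.8, 42.5 and 34.7 FPKM with Dex in wild-type, where its difference was -0.07 (interaction -0.58 ± 0.30). Of 31 cell cycle genes 8 (25.8%, beside 22.6% of all genes) had an unadjusted p under 0.05, all with a negative interaction, beside a median of -0.11 over all genes. That count was 13 without vehicle replicate 3 (beside 17.3% of all genes) or wild-type vehicle replicate 2 (12.4%), 3 without vehicle replicate 2 (16.1%), 5 without wild-type Dex replicate 1 (19.7%) and 2 without wild-type vehicle replicate 1 (20.3%). It was 5 with centring (24.5%) or quantile normalization (25.4%) and 3 with a pseudocount of 0.1 (20.3%).

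Of 89 respiratory chain genes 62 (beside 22.6% of all genes) had an unadjusted p under 0.05, all with a positive interaction, with a median of 0.20 in the libraries labelled AMPKa1-/- and -0.32 in wild-type. Of the cytosolic ribosomal genes 52 of 78 did, and of the mitochondrial ribosomal genes 36 of 77. The share of all genes at the same setting stands in brackets below. With the length trend removed these counts were 37, 19 and 21 (16.6%), and without Dex replicate 2 they were 39, 8 and 25 (11.2%). Without wild-type Dex replicate 2 they were 39, 13 and 22 (11.4%), and without wild-type vehicle replicate 2 they were 43, 8 and 28 (12.4%). The cytosolic ribosomal count was 13 without vehicle replicate 3 (17.3%) and 7 with quantile normalization (25.4%). As shares of their lists, the lowest cytosolic ribosomal counts were 8.97% with quantile normalization and 10.3% without Dex replicate 2 or wild-type vehicle replicate 2, below the share of all genes in each case.

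Dex was also compared on DAMPs and on LPS. The comparison of DAMPs + Dex with DAMPs in libraries labelled AMPKa1-/- uses 6 other libraries, and 93.4% of the genes called for Dex alone had the same sign there (69.7% of all genes tested). Without DAMPs + Dex replicate 1, the library that goes against its number, a setting added after the data had been seen, 94.4% did (71.5% of all genes tested). The Pearson correlation across the 3198 called genes was 0.88 for DAMPs, 0.89 without that library, and 0.48 for LPS, where genes are not independent of each other. On LPS 66.5% of the called genes had the same sign (59.5% of all genes tested); of the genes that rose at least 2-fold 86.0% did, and of those that fell at least 2-fold 62.7%.

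Some groups kept their direction on all 3 backgrounds and some did not. Glucocorticoid-induced genes had medians of 1.76 on DAMPs and 1.79 on LPS, and Fkbp5 differed by 7.34 and 5.40. Interferon-stimulated genes had medians of -2.62 on DAMPs and -4.49 on LPS, and Ifit3 differed by -4.91 and -6.78. The cell cycle list had a median of -0.19 on DAMPs and 0.42 on LPS, and Ccnd1 differed by -2.93 and 0.48. Lpl differed by -3.08 on DAMPs and 1.11 on LPS, Glul by 1.86 and 3.87, and Ddit4 by 7.02 and 2.87. Without DAMPs + Dex replicate 1 the medians of these lists on DAMPs were 1.74, -2.62 and -0.24. These are differences between group means and were not tested against each other.

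**Figure D5:**
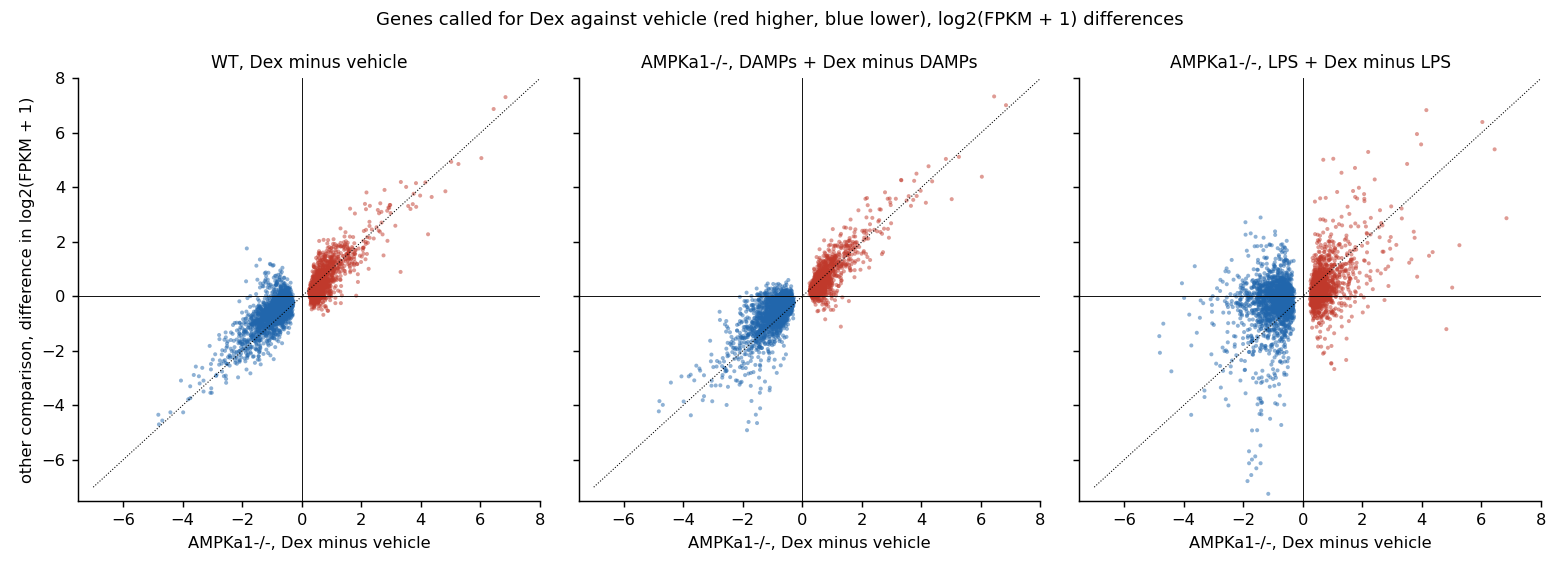
Difference made by Dex on log2(FPKM + 1) in wild-type without stimulus (left), and in libraries labelled AMPKa1-/- on DAMPs (middle) and on LPS (right), against the difference made by Dex alone in libraries labelled AMPKa1-/- (horizontal axes), for the 3198 genes called for Dex alone. Red and blue mark genes called higher and lower, the dotted line is equality, and the spread about it is widest for LPS, where the Pearson correlation is 0.48 beside 0.88 for the others.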

How the data were processed

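The authors deposited 1 table per library with FPKM values for 47069 Ensembl gene identifiers. The submitters' processing notes name Bowtie2 2.2.3, TopHat2 2.0.12, HTSeq 0.6.1 and DESeq2 and the builds GRCm38 and mm10, without saying which step each served. Symbols and positions come from GENCODE M21 (GRCm38), which has a symbol for 46574 identifiers. FPKM keep no counts. Dividing low values by the step that a fragment makes at the annotated exon length gave whole numbers (tolerance 0.001) for 53.1% to 56.9% of the genes below 10 fragments in the 6 libraries. Counts were therefore not recovered, no count test was run and no counting intervals were given.

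Genes whose FPKM averaged 1 or more in the 6 libraries were tested on log2(FPKM + 1) with limma 3.58.1 (R 4.3.3; trended empirical Bayes, 2-sided) in 12 libraries labelled AMPKa1-/- (vehicle, Dex, LPS and LPS + Dex), with Benjamini-Hochberg adjustment at 0.05; errors of differences are SE. The interaction used 23 libraries in 8 groups and the genes that averaged 1 or more in the 12 vehicle and Dex libraries. The fit was tested on simulated independent normal values with 200 of 11182 genes changed, fewer than were called here. It recovered 72% of the changes of 1 and 98% of those of 2 on the log2 scale. Of its calls 6.08% were false, above the level of 0.05. Shifts of whole libraries were not simulated. Tables used Python with pandas, and promoter windows are from RefSeq.

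Members, gene lists and tests were chosen with earlier results of these data known. Named genes are Prkaa1, Prkaa2, Nr3c1, the 10 largest rises and 10 largest falls among called protein-coding genes whose groups did not overlap (without Gm and Rik symbols), the 5 largest gains and losses in FPKM, up to 4 called genes of each list, and the 5 protein-coding genes with the smallest interaction p; other list members are named as examples, and some genes that this rule names are not reported here. Same-numbered vehicle and Dex libraries labelled AMPKa1-/- deviated together (r = 0.31, 0.21 and 0.40, each over 0.1; vehicle replicate 1 with Dex replicate 2 also reached 0.12, and the other unequal numbers were below 0), so the numbers were taken as pairs and a replicate block was fitted as an alternative; what a number stands for is not stated. No replicate pair shared identical values for any gene above 0. Other alternatives were another pseudocount (0.1), no filter, a filter at 5, centring, quantile normalization, no moderation, other sets of libraries and each library left out. Wild-type DAMPs libraries were not used here.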

Additional observations from a re-analysis of the deposited data

Results flagged for a closer look

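In 3 genes every Dex library lay on one side of every vehicle library in each genotype, in opposite directions. These are Ino80, Slc5a3 and Plekhh2, named for their small interaction p. Ino80, a chromatin remodeller, had 7.45, 8.15 and 8.11 FPKM with vehicle and 5.35, 4.82 and 4.82 FPKM with Dex in libraries labelled AMPKa1-/-, and 9.17, 6.36 and 9.12 FPKM and 11.3, 13.4 and 10.7 FPKM in wild-type (difference between the genotypes -1.05 ± 0.20, adjusted p = 0.11 in limma). Slc5a3, the myo-inositol importer, had 1.98, 2.32 and 3.38 FPKM and 0.997, 0.553 and 1.33 FPKM, and 0.961, 0.718 and 1.27 FPKM and 1.503, 1.78 and 1.63 FPKM in wild-type (-1.28 ± 0.25, adjusted p = 0.12). Plekhh2 had 1.02, 1.41 and 0.855 FPKM and 0.5203, 0.562 and 0.759 FPKM, and 0.979, 0.907 and 1.08 FPKM and 2.47, 2.37 and 1.38 FPKM in wild-type (-0.98 ± 0.20, adjusted p = 0.12). Its mean over the 6 libraries labelled AMPKa1-/- was under 1 FPKM, so it was tested for the difference between the genotypes but is not among the 11182 genes. Plekhh2 passed the filter for that test only through the wild-type Dex libraries, where it was highest, and its difference is given as a description only. None of the differences passed the adjusted threshold. Over those 11182 genes, which include Ino80 and Slc5a3, 183 moved without overlap in opposite directions in the genotypes and 2656 in the same direction.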

How the results depend on the processing

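The count of genes called for Dex against vehicle stayed within 1.5 times the 3198 reported under each alternative run, from 2218 to 2795 with 1 library left out and from 2510 (filter at 5 FPKM) to 3959 (quantile normalization) otherwise. For the difference between the genotypes, where 0 genes were called, centring called 3, the 12 vehicle and Dex libraries alone 3, no filter 34 of 24382 and the replicate block 2, and leaving out 1 library gave 0 to 16, the most without wild-type Dex replicate 3. At an unadjusted p under 0.05 the count was 1266 without Dex replicate 2 labelled AMPKa1-/-, 1278 without wild-type Dex replicate 2 and 1403 without wild-type vehicle replicate 2, beside 2555. Wild-type libraries of one number did not deviate together (r = 0.06, -0.12 and -0.20). Of 136 named genes called, 110 kept their call under every alternative in which they were tested, and no named gene turned its direction. With the block, Prkag2 alone of the named genes lost its call (adjusted p = 0.051), and 3073 of 3323 genes called were among the 3198. Where an arm is left with 2 libraries its spread is assumed to be that of the other groups. The causes of these shifts were not tested.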
